A study of Mus musculus with 4 samples.

Results

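Mitochondria carry their own ribosome, the mitoribosome, which makes the few respiratory chain proteins that are encoded in mitochondrial DNA. Its large subunit joins amino acids and its small subunit reads the messenger RNA. All of its proteins are encoded in the nucleus, made in the cytosol and imported, whereas its ribosomal RNAs are transcribed inside the organelle. Cancer cells that respire depend on it, because complexes I, III, IV and V of the respiratory chain each combine nuclear and mitochondrial gene products. The genes described here are those whose symbol is Mrpl (large subunit) or Mrps (small subunit) followed by a number and at most 1 letter. The deposited table held 76 of them among 34147 distinct symbols, 47 for the large and 29 for the small subunit, each on a single row and spread over 17 chromosomes. The symbols fit the structure of the ribosome with a few exceptions. In mammalian mitoribosomes the products of Mrps30 and Mrps18a sit in the large subunit, and Mrps36 encodes a part of the alpha-ketoglutarate dehydrogenase complex and not of the ribosome.

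The libraries come from 4 cell lines of mouse lung cancer, 1 from each. The metastatic lines, from lymph nodes, are 238N1 and 482N1. The non-metastatic lines, from the lung, are 368T1 and 394T4. All 4 share the strain 129S1/SvImJ and p53flox/flox alleles, which Cre recombinase deletes, and in all of them tumours were started with lentiviral Cre vectors. The growth notes speak of cancer cells in culture and the treatment notes of tumour samples. The labels do not say how many mice gave the lines or whether a line is 1 clone, so a p-value measures only the spread between these libraries.

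The unit is FPKM (fragments divided by transcript length and by library depth), so levels of different genes can be compared. Read totals are unknown. Over protein-coding genes FPKM summed to between 413128 and 419176 in the metastatic lines and between 477456 and 492076 in the non-metastatic lines, and a single row held 18.7% to 62.4% of each library's whole sum. From the smallest steps in the values, 238N1 was the deepest library, and the others had 0.554 to 0.610 of its depth if all were normalised alike. All 6 epithelial markers examined reached 1 FPKM in every line, while no endothelial and no erythroid marker did. The epithelial levels differed, however, and summed to 2916 FPKM in 238N1 and 1768 in 482N1, against 3941 in 368T1 and 3668 in 394T4. Epcam had 4.13 and 4.76 FPKM in the metastatic lines, against 54.0 and 34.3 FPKM in the non-metastatic lines, and Krt7 was at 6.90 FPKM in 482N1 and between 349.6 and 480.0 FPKM in the other lines. Cdh1 overlapped between the groups, with 174 FPKM in 238N1 and 104 in 482N1, against 109 in 368T1 and 155 in 394T4. Of 8 markers of fibroblasts and stroma, 4 reached 1 FPKM in 482N1, against 0 in 238N1 and 1 each in 368T1 and 394T4. Of 6 blood markers 1, Cd68, reached 1 FPKM in every line. Of 5 lung markers, 1 reached 1 FPKM in 238N1 and 1 in 482N1, against 2 in 368T1 and 4 in 394T4.

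The mitoribosomal genes were expressed in all 4 lines, at levels above those of most genes. Their means over the 4 lines ran between 2.79 FPKM (Mrpl1) and 121 FPKM (Mrpl28), with a median of 38.0 FPKM against 12.8 FPKM for the 12425 genes with a mean of at least 1 FPKM, which were the genes tested. Of the 76 genes, 5 averaged under 10 FPKM, 68 between 10 and 100 FPKM, and 3 above 100 FPKM, and all 76 passed the minimum. Their spread over the lines resembled that of genes in general, with a median SD of log2(FPKM + 1) of 0.303 against 0.318. Just 2 members, Mrpl1 and Mrpl44, were listed at 0 in any library, against 971 genes or 7.81% of all those tested.

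Summed over the 76 genes, FPKM was 2806 in 238N1 and 2461 in 482N1, against 3825 in 368T1 and 3334 in 394T4. The metastatic lines averaged 2633 ± 244 and the non-metastatic lines 3579.6 ± 347 (SD, n = 2 each), a ratio of 0.736. The groups did not overlap, and the two-sided exact permutation p was 0.33, the smallest that 2 lines against 2 allow. In RNA from whole cultures, fewer expressing cells and less RNA per cell cannot be told apart. As a share of all protein-coding FPKM the members took 0.669% in 238N1 and 0.596% in 482N1, against 0.777% in 368T1 and 0.698% in 394T4, a ratio of 0.857 (exact permutation p = 0.33). The order of the lines was the same on both scales, with 482N1 lowest and 368T1 highest. The summed epithelial markers had this order too, though single markers such as Cdh1 did not. The part of such differences between the lines in the members' levels was not tested.

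Both subunits had this order. Large subunit genes summed to 1741 FPKM in 238N1 and 1522 FPKM in 482N1, against 2435 FPKM in 368T1 and 2103 FPKM in 394T4, a ratio of group means of 0.719. Small subunit genes summed to 1065 FPKM in 238N1 and 939 FPKM in 482N1, against 1390.45 FPKM in 368T1 and 1231 FPKM in 394T4, a ratio of 0.764. The mean level of a large subunit gene over that of a small subunit gene was 1.008 in 238N1 and 0.9999 in 482N1, against 1.0804 in 368T1 and 1.054 in 394T4. These ratios averaged 1.004 ± 0.00602 in the metastatic and 1.067 ± 0.0189 in the non-metastatic lines (SD, n = 2 each; exact permutation p = 0.33), so the subunits' mean levels stayed near each other in each line. The medians of large and small subunit genes were less alike in 238N1 (37.9 and 31.2 FPKM) and in 394T4 (37.3 and 41.6 FPKM). They were 28.9 and 28.9 FPKM in 482N1, and 42.9 and 42.7 FPKM in 368T1.

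**Figure D1:**
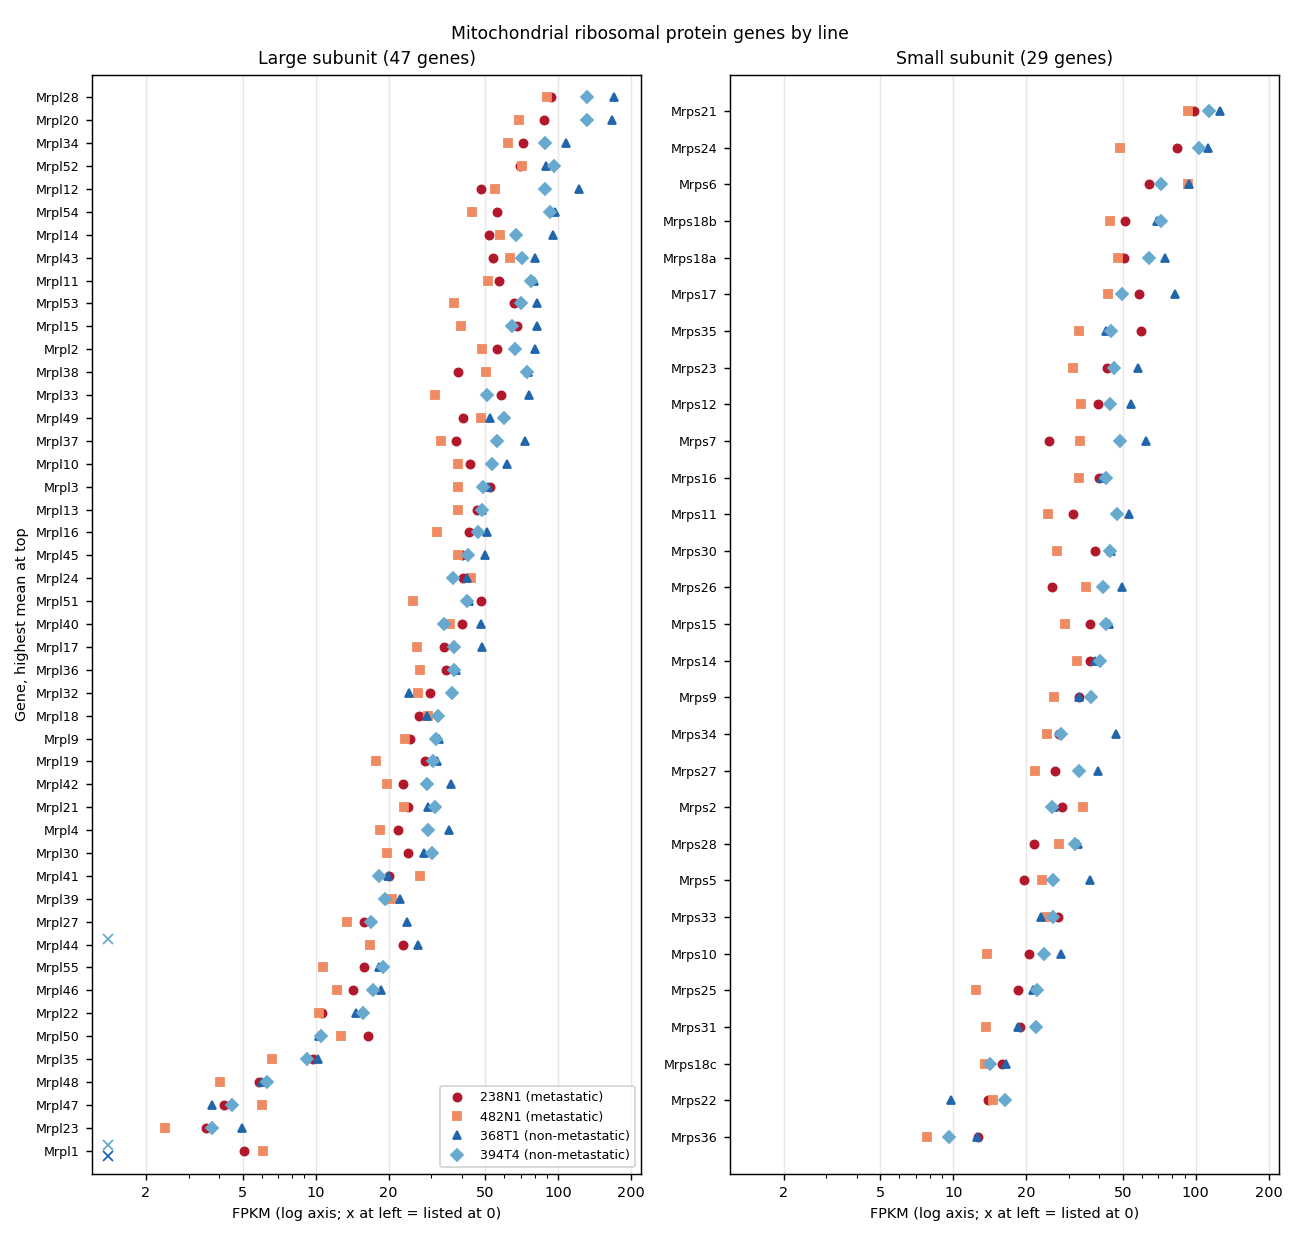
FPKM (log axis) of the 47 large subunit genes (left) and the 29 small subunit genes (right) in each of the 4 lines, 1 point per line and gene, ordered by mean level. The metastatic points (red and orange) lie left of the non-metastatic points (blue) for 52 genes and right of them for 4, and crosses mark values listed at 0.

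The comparison of the metastatic with the non-metastatic lines asks how cells from lymph node metastases differ from cells of lung tumours that had not spread. As deposited, 66 of the 76 genes had a negative log2 fold change (86.8%, against 46.6% of all genes tested), whereas scaling to the library sum turned most of these signs. For 52 genes, 68.4%, both metastatic lines were below both non-metastatic lines, against 26.9% of all genes. For 4 genes, 5.26%, they were above both, against 28.3% of all genes, and the groups overlapped for the remaining 20. The median fold change of the members was -0.40 on the log2(FPKM + 1) scale, against 0.05 over all genes tested. It was -0.40 for large and -0.40 for small subunit genes, with 41 of 47 and 25 of 29 negative, and 32 and 20 with both metastatic lines below.

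No member passed an adjusted p of 0.05 in limma, a linear model fitted over all genes, in which 0.0483% of all genes were called lower and 0.113% higher. The smallest adjusted p among the members was 0.129, for Mrpl1. At an unadjusted p under 0.05, 18 of the 76 genes (23.7%) were lower and 1 was higher, against 8.68% and 5.7% of all genes, and the adjusted p of the 18 ran from 0.328 to 0.344. Of the 18, 13 are Mrpl genes and 5 are Mrps genes. In all 18 both metastatic lines were below both non-metastatic lines, which their selection by this p favours. The members' median fold change depended on single libraries. It was -0.24 without 482N1, -0.33 without 368T1, -0.46 without 394T4 and -0.51 without 238N1. The median of all genes in the same fits was 0.025, -0.0059, 0.081 and 0.057, in that order. These fits leave 1 line in a group, so counts at an unadjusted p are not given for them.

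How the libraries are scaled set the sign as well. Scaled to the library sum, to which the single row contributes most in 368T1, the members' median became 0.22, with 10 negative and 0 lower at an unadjusted p under 0.05, but the median of all genes became 0.61. With the protein-coding sum as the scale, the medians were -0.19 for the members and 0.24 for all genes, with 55 members negative and 7 lower. Relative to the median of all genes the members stood 0.44 lower as deposited (difference -0.44), and the difference was -0.39 and -0.42 under those scalings and -0.34 after quantile normalization. The changes below are therefore best read against the shift of all genes.

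**Figure D2:**
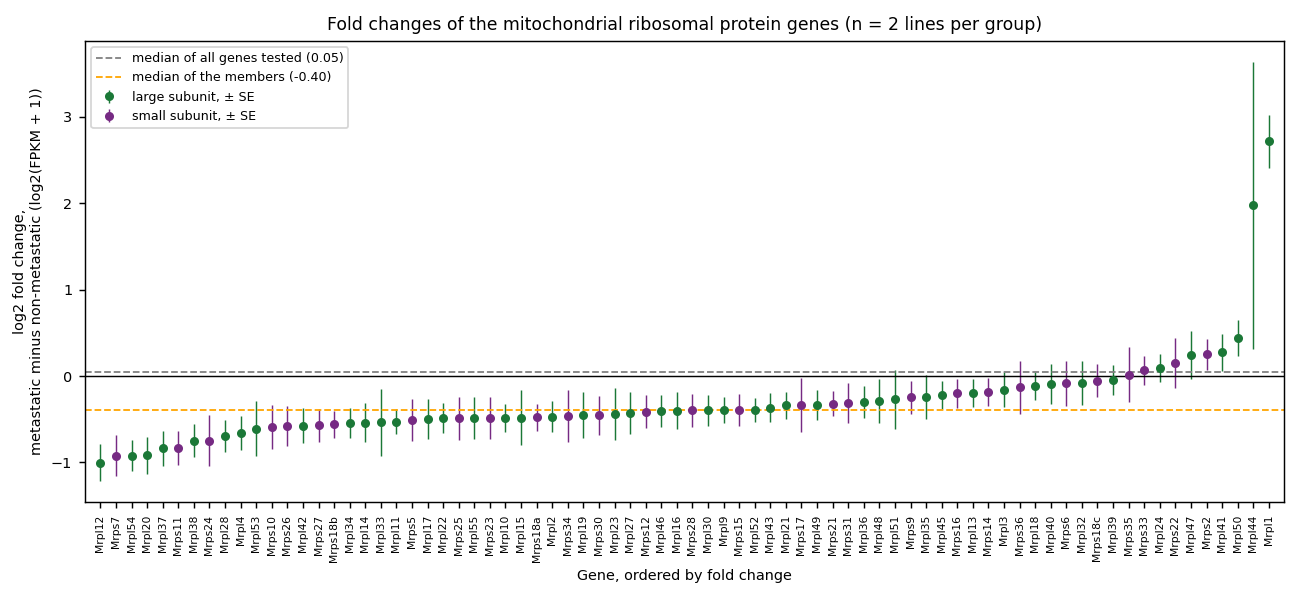
Log2 fold change of each of the 76 genes (metastatic minus non-metastatic, on log2(FPKM + 1), n = 2 lines per group), with bars of 1 standard error, ordered by size and coloured by subunit. As deposited 66 points lie below 0 around a median of -0.40, against 0.05 for all genes tested, and under scaling to the library sum the medians are 0.22 and 0.61. The 2 points at the far right, Mrpl44 and Mrpl1, rest on values listed at 0.

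The lowest values relative to the non-metastatic lines were those of Mrpl12, Mrps7, Mrpl54 and Mrpl20. Mrpl12 (chr11:120345927-120350379, mm9) encodes the protein of the ribosomal stalk, which receives translation factors. It had 47.9 FPKM in 238N1 and 54.8 in 482N1, against 121 in 368T1 and 88.5 in 394T4, a log2 fold change of -1.002 (SE 0.22, limma unadjusted p = 0.00852, adjusted p = 0.328). Even the higher metastatic line was well under the lower non-metastatic one. The proteins at the base of the same stalk are encoded by Mrpl10 and Mrpl11, with fold changes nearer to 0. Mrpl10 had 43.2 and 38.6 FPKM in the metastatic lines, against 61.7 and 53.6 FPKM in the non-metastatic lines (-0.49, SE 0.17). Mrpl11 had 56.8 and 51.5 FPKM in the metastatic lines, against 79.4 and 77.4 FPKM in the non-metastatic lines (-0.53, SE 0.15). None of these values overlapped between the groups, which is favoured by naming genes for their unadjusted p.

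Several proteins with bacterial counterparts lie against the ribosomal RNA of the large subunit. Mrpl28, the member with the highest mean, had 93.4 FPKM in 238N1 and 89.97 in 482N1, against 170.4 in 368T1 and 131 in 394T4 (log2 fold change -0.70, SE 0.19, adjusted p = 0.335). Mrpl20 (chr4:155177645-155183885), whose bacterial counterpart acts early in subunit assembly, had 87.7 in 238N1 and 69.1 in 482N1, against 166 FPKM in 368T1 and 132 in 394T4 (-0.92, SE 0.21, adjusted p = 0.330). These 2 genes and Mrps21 were the 3 above 100 FPKM on average. Mrpl34 had 71.4 and 62.4 FPKM in the metastatic lines, against 107.9 and 88.6 FPKM in the non-metastatic lines (-0.54, SE 0.18). The bacterial counterparts of Mrpl4 and Mrpl22 line the tunnel through which the new protein leaves. Mrpl4 had 21.9 and 18.5 FPKM in the metastatic lines, against 35.6 and 29.2 FPKM in the non-metastatic lines (-0.66, SE 0.20). Mrpl22 was lower in level, with 10.7 and 10.3 FPKM in the metastatic lines, against 14.7 and 15.7 FPKM in the non-metastatic lines (-0.49, SE 0.17).

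The mitoribosome also holds proteins that bacteria lack. Mrpl54 (chr10:80727458-80729679) had 55.9 FPKM in 238N1 and 44.1 in 482N1, against 97.0 in 368T1 and 92.8 in 394T4 (log2 fold change -0.92, SE 0.18, adjusted p = 0.328). Mrpl37 had 37.9 in 238N1 and 33.0 in 482N1, against 72.9 in 368T1 and 55.9 in 394T4 (-0.84, SE 0.20). Mrpl38 had 38.5 in 238N1 and 50.6 in 482N1, against 75.3 in 368T1 and 74.2 in 394T4 (-0.75, SE 0.19). In these 3 genes the gap between the groups was wider than the gap within either, which is favoured by naming genes for their unadjusted p. Smaller differences past an unadjusted p of 0.05 were those of Mrpl42 (-0.57, SE 0.20) and Mrpl52 (-0.39, SE 0.14). Over the 46 genes with a bacterial counterpart the median was -0.41 with 42 negative, and over the 27 without one it was -0.37 with 21 negative, so both classes lay under the median of all genes.

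In the small subunit, Mrps7 and Mrps11 had the lowest fold changes. Mrps7 (chr11:115465239-115469350), whose bacterial counterpart starts the assembly of the subunit's head, had 24.8 FPKM in 238N1 and 33.2 in 482N1, against 62.6 in 368T1 and 48.7 in 394T4 (log2 fold change -0.92, SE 0.23, adjusted p = 0.335). Mrps11, a protein of the platform, had 31.2 in 238N1 and 24.5 in 482N1, against 53.0 in 368T1 and 47.4 in 394T4 (-0.83, SE 0.19, adjusted p = 0.332). Here too the groups were apart by more than their inner spread, as naming by p favours. Mrps27, which encodes a pentatricopeptide repeat protein that bacteria lack, had 26.3 and 21.7 FPKM in the metastatic lines, against 39.4 and 33.0 FPKM in the non-metastatic lines (-0.57, SE 0.20). Mrps24 had 83.8 FPKM in 238N1 and 48.7 in 482N1, against 112 in 368T1 and 104 in 394T4 (-0.75, SE 0.30), with most of its spread between the metastatic lines. Mrps21, the highest of the small subunit, had 98.6 and 92.6 FPKM in the metastatic lines, against 126 and 113 FPKM in the non-metastatic lines (-0.32, SE 0.14).

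Bacterial S18 has 3 mouse relatives, and they did not all move alike in value. Mrps18b had 51.1 FPKM in 238N1 and 44.4 in 482N1, against 69.4 in 368T1 and 72.2 in 394T4 (log2 fold change -0.56, SE 0.16). Mrps18a had 50.5 in 238N1 and 48.0 in 482N1, against 74.4 in 368T1 and 64.0 in 394T4 (-0.48, SE 0.16). Mrps18c, the lowest of the 3, had 15.9 in 238N1 and 13.6 in 482N1, against 16.4 in 368T1 and 14.2 in 394T4 (-0.05, SE 0.19). The groups overlapped for Mrps18c and not for its relatives, and a difference between the 3 fold changes was not tested. Mrps30 had 38.4 and 26.9 FPKM in the metastatic lines, against 44.7 and 44.2 FPKM in the non-metastatic lines (-0.46, SE 0.23). Moving Mrps30 and Mrps18a to the large subunit and leaving out Mrps36 gave medians of -0.41 for the large and -0.40 for the small subunit.

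In 4 genes both metastatic lines stood above both non-metastatic lines. Mrpl1 (chr5:96638512-96695746), which encodes the protein of the stalk beside the site where used transfer RNA leaves, had 5.08 FPKM in 238N1 and 6.09 in 482N1 and a listed 0 in 368T1 and in 394T4. It was the member with the lowest mean and the only one higher at an unadjusted p under 0.05. Its adjusted p was 0.129, and ranged between 0.000994 and 0.454 under the alternatives, below 0.05 when scaled to the library sum and in limma without a trend (0.0437). A pattern of 0 in both non-metastatic lines with a value above 0 in both metastatic lines was shared by 83 of the genes tested, and a listed 0 in a file without counts can be a failed estimate. Mrpl50 had 16.5 in 238N1 and 12.7 in 482N1, against 10.3 in 368T1 and 10.5 in 394T4 (log2 fold change 0.44, SE 0.21). Mrpl41 had 20.02 and 26.9 FPKM in the metastatic lines, against 19.8 and 18.3 FPKM in the non-metastatic lines (0.27, SE 0.21). Mrps2 had 28.0 and 34.2 FPKM in the metastatic lines, against 26.1 and 25.6 FPKM in the non-metastatic lines (0.25, SE 0.18). For Mrpl50, Mrpl41 and Mrps2 the unadjusted limma p lay above 0.05. Mrpl47, at 4.21 FPKM in 238N1 and 6.03 in 482N1, against 3.74 in 368T1 and 4.53 in 394T4, overlapped between the groups.

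The lines of a group also differed from each other. Over the 76 genes, 482N1 was the lowest of the 4 lines for 52, and 368T1 the highest for 49. Between the metastatic lines the median member was 0.21 higher in 238N1 than in 482N1 on the log2 scale, with 57 of 76 higher, while the median of all genes was -0.04. Between the non-metastatic lines it was 0.13 higher in 368T1 than in 394T4, with 55 higher, and the median of all genes was -0.08. Across groups the medians were -0.20 for 238N1 minus 394T4, -0.35 for 238N1 minus 368T1, -0.45 for 482N1 minus 394T4 and -0.60 for 482N1 minus 368T1. The gap between the metastatic lines was thus about as large as the smallest of the 4 gaps between groups. 482N1 was also the line with the highest sum of the 8 stromal markers, 39.8 FPKM, against 0.678 in 238N1, 2.47 in 368T1 and 4.30 in 394T4, and the part of this in the members' levels was not tested.

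Among genes of at least 10 FPKM, those that differed most between the metastatic lines were Mrpl51, Mrpl33, Mrps35 and Mrpl53, each higher in 238N1. Mrpl51 had 48.3 FPKM in 238N1 and 25.3 in 482N1, against 42.9 in 368T1 and 42.0 in 394T4. Mrpl33 had 58.1 in 238N1 and 31.0 in 482N1, against 75.6 in 368T1 and 50.8 in 394T4. Mrps35 had 59.2 in 238N1 and 32.9 in 482N1, against 42.7 in 368T1 and 44.7 in 394T4. In Mrpl51 and Mrps35 the non-metastatic values lay between the metastatic ones. Mrpl53 had 65.5 in 238N1 and 37.1 in 482N1, against 81.9 in 368T1 and 69.9 in 394T4. Between the non-metastatic lines Mrpl44, Mrps34, Mrps17 and Mrps22 differed most. Mrps34 had 27.3 and 24.5 FPKM in the metastatic lines, against 46.9 in 368T1 and 27.7 in 394T4. Mrps17 had 58.4 and 43.6 FPKM in the metastatic lines, against 82.4 in 368T1 and 49.7 in 394T4. Mrps22 went the other way, with 13.9 and 14.6 FPKM in the metastatic lines, against 9.84 in 368T1 and 16.4 in 394T4. Mrps6 had 64.4 in 238N1 and 92.9 in 482N1, against 94.2 in 368T1 and 71.5 in 394T4, so its 2 groups covered nearly the same range.

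Promoters of genes for mitochondrial proteins often hold sites for ETS family factors such as GABP, for NRF1 and for YY1. Letters of such sites were counted on both strands in RefSeq windows (GRCm38.p6) from 250 bases before to 50 bases after each start, in which 67 of the 76 genes were matched with 73 windows. The ETS letters CCGGAAG stood in 32.9% of the members' windows, against 18.2% of the windows of tested genes and 8.86% of all windows. The YY1 letters AAGATGGCG stood in 10.96%, against 3.24% and 1.403%, and the core NRF1 palindrome in 4.11%, against 2.22% and 0.971%. The TATA letters TATAAA stood in 6.85%, against 6.86% and 13.6%. The ETS and YY1 letters can overlap by AAG, so that a stretch may count for both, and a match is not a bound site. Genes with the ETS letters had a median fold change of -0.40 (24 genes) and those without -0.39 (43 genes). Of the 15 matched genes that were lower at an unadjusted p under 0.05, 6 held them. The windows of 4 of these genes are shown because they span what was found, with the matched letters in capitals. Mrpl12, the gene with the lowest fold change, held none of the letters. Mrps18a and Mrps27 held both ETS and YY1 letters, and Mrps11 held the YY1 letters on the opposite strand. The positions are chr11:120484387-120484686 for Mrpl12, chr17:46110754-46111053 for Mrps18a, chr13:99344536-99344835 for Mrps27 and chr7:78782881-78783180 for Mrps11, all on the plus strand.
Mrpl12: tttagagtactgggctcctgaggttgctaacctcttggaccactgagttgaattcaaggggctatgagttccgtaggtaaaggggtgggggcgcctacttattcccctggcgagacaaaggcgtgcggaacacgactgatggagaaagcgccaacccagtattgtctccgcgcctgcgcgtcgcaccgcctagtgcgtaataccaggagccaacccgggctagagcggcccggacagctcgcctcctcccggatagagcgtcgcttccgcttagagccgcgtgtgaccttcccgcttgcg
Mrps18a: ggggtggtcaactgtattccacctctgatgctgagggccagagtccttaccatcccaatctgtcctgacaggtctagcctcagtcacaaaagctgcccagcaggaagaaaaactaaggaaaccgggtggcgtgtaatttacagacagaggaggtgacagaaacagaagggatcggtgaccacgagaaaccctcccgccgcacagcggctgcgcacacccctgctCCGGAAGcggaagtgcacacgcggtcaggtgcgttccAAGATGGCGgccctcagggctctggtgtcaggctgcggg
Mrps27: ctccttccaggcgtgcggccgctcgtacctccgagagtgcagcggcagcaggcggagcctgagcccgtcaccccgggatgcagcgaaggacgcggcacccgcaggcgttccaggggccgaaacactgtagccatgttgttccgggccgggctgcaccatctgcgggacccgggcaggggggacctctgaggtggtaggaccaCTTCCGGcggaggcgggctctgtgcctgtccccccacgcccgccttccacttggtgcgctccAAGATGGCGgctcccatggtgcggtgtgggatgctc
Mrps11: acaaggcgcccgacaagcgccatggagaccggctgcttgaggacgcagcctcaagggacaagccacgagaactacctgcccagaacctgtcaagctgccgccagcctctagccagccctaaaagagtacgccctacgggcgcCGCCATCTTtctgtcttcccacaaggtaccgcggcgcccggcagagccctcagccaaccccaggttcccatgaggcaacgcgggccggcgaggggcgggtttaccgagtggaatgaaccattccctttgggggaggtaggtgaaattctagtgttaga

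Many members share their start region with a gene on the other strand. In the annotation, 28 of the 76 genes (36.8%) had a protein-coding gene starting within 1000 bases in the opposite direction, against 10.8% of 22315 protein-coding genes, and in 12 of the 28 the starts overlapped. The 22315 include genes under the minimum for testing, which all members passed, and the share among tested genes was not computed. Of the 24 pairs with both genes tested, both fold changes were negative in 16 and positive in 4, and the member was negative and the partner positive in 4. As deposited, 86.8% of all 76 members and 46.6% of all genes tested were negative. The split over all opposite-strand pairs was not computed, and a link between partners was not tested. Mrps11 and Mrpl46 are such a pair with each other. Mrpl46 had 14.3 FPKM in 238N1 and 12.3 in 482N1, against 18.7 in 368T1 and 17.2 in 394T4, so both genes of the pair were lower in the metastatic lines. Mrps12 starts 171 bases from Sars2, the mitochondrial seryl-tRNA synthetase, which had 8.76 and 8.17 FPKM in the metastatic lines, against 14.5 and 11.8 FPKM in the non-metastatic lines. Mrpl44 (chr1:79772593-79778020), a protein with a ribonuclease III fold, had 23.0 in 238N1 and 16.8 in 482N1, against 26.5 in 368T1 and a listed 0 in 394T4. Its overlapping neighbour Wdfy1 had 9.28 in 238N1 and 5.10 in 482N1, against 9.60 in 368T1, and was also listed at 0 in 394T4. Reads of overlapping genes cannot be told apart unless counting used strand, which is not stated. Without 394T4 the log2 fold change of Mrpl44 was -0.41.

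Near-identical copies of a gene elsewhere in the genome can draw reads away from it, and how the authors treated reads with several places is not given in the sources used here. For 13 of the 76 genes the genome held at least 1 stretch of at least 95% identity over at least 80% of the coding sequence, 16 copies in all. Of these, 11 had a row of their own, belonging to 9 genes, and in 7 of the 9 the copy's row was above the gene's. Mrpl23, whose bacterial counterpart sits at the tunnel exit, had 3.55 FPKM in 238N1 and 2.38 in 482N1, against 4.96 in 368T1 and 3.75 in 394T4. Its processed copy Mrpl23-ps1, identical over all 441 coding bases, had 55.7 in 238N1 and 39.2 in 482N1, against 63.4 in 368T1 and 51.6 in 394T4, on average 14.3 times as much. In gene and copy alike 368T1 was highest and 482N1 lowest, and the level of Mrpl23 is uncertain. Mrps33 averaged 25.1 FPKM over the 4 lines and its copy Gm5776 74.1 FPKM, with 99.7% identity. Mrpl48 averaged 5.55 and Mrpl48-ps 18.1. Mrps36 had 12.7 FPKM in 238N1 and 7.81 in 482N1, against 12.6 in 368T1 and 9.64 in 394T4, and averaged 10.7 beside 38.6 for Mrps36-ps1 and 47.3 for Mrps36-ps2. Mrps21 was the highest gene with a copy and exceeded it, at 108 FPKM against 70.9 for Gm6181. For Mrpl23 and Mrps33, 60 bases of the spliced coding sequence and of the copy are shown, since the level of each gene rests on how such reads were assigned. In Mrpl23 the capitals flank an exon junction (coding bases 194 to 253), and its copy at chr2:74429697-74429756 (minus strand, mm9) holds the same letters with no intron. In Mrps33 (coding bases 141 to 200) the capital marks the 1 base of 321 that differs from Gm5776 at chr7:61667649-61667708 (minus strand, mm9).
Mrpl23: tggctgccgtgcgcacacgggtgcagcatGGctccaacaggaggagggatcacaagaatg
Mrpl23-ps1: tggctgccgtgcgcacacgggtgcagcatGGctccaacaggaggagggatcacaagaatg
Mrps33: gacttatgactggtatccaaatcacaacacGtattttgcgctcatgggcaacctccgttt
Gm5776: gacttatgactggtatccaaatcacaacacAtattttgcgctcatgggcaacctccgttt

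**Figure D3:**
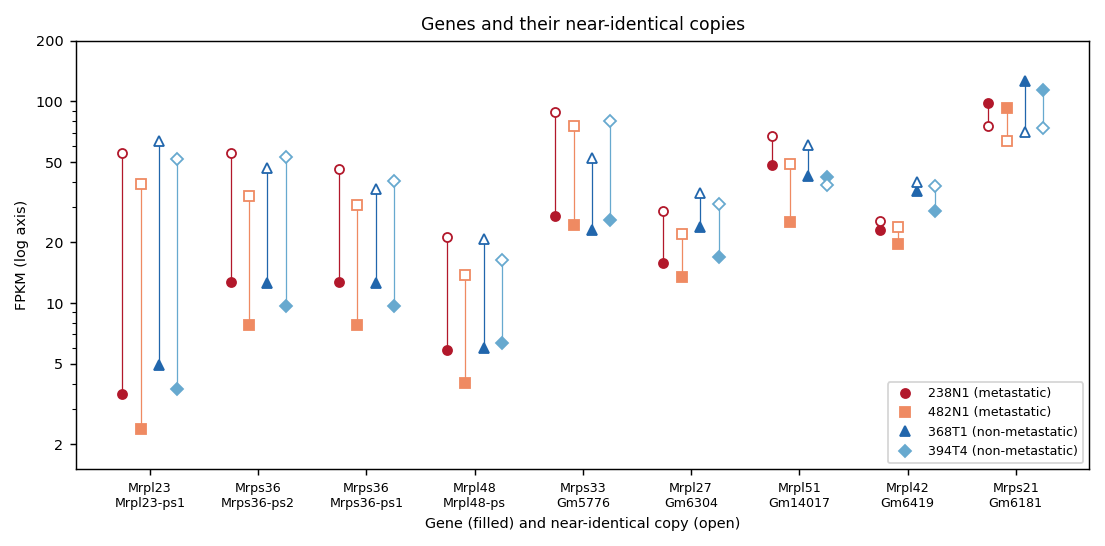
FPKM (log axis) of genes (filled) and of their near-identical copies with a row of their own and values above 1.5 FPKM (open), in each of the 4 lines. The copy lies above the gene in every line for Mrpl23, Mrps36, Mrpl48, Mrps33, Mrpl27 and Mrpl42, and below it in every line for Mrps21.

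The 63 genes with no such copy had a median log2 fold change of -0.41, and the 13 with one -0.32, and adding the copies' rows to their genes left the median of all 76 at -0.40. Both values come from the FPKM as deposited, and their sign depends on the scaling as above.

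Level and length went along with fold change over all genes. Genes with higher values had lower fold changes: the median of all genes tested was 0.05, and it was -0.08 for those of at least 10 FPKM, -0.16 for at least 20 FPKM and -0.24 for at least 50 FPKM. The members' medians at the same minimums were -0.40, -0.41, -0.43 and -0.53, with 21 of 21 members negative at 50 FPKM and above. Spearman's rho between fold change and mean FPKM was -0.44 across the 76 members and -0.29 across all genes tested, a description across genes that share the same 4 libraries and are not independent. Mitoribosomal transcripts are short, with a median annotated length of 1065 bases against 2197 for protein-coding genes tested. Among genes with transcripts under 1000 bases the median was -0.40 for the 36 members and -0.17 for all 1815 genes, and between 1000 and 1500 bases it was -0.41 for 21 members and -0.09 for 1457 genes. The median of all genes went up to 0.37 in the longest class, while that of the members stayed between -0.49 and -0.27 in the 5 classes, of which the last held a single member. The part of level and length in the members' fold changes was not tested.

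**Figure D4:**
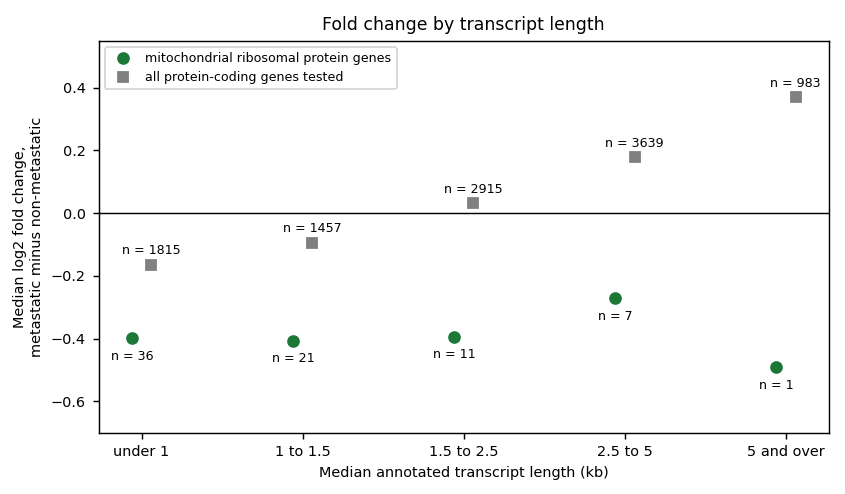
Median log2 fold change (metastatic minus non-metastatic, FPKM as deposited) in 5 classes of median annotated transcript length in kb, for the mitoribosomal genes (circles) and for all protein-coding genes tested (squares), with the number of genes at each point. The squares go from -0.17 for the shortest to 0.37 for the longest genes, and the circles lie between -0.49 and -0.27.

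Genes that work with the mitoribosome were described as lists, none of whose members passed an adjusted p of 0.05 as deposited. A further 7 ribosome proteins have other symbols, and 6 were negative with a median of -0.59. Among them Ict1, a peptidyl-tRNA hydrolase built into the large subunit, had 28.7 FPKM in 238N1 and 33.6 in 482N1, against 70.9 in 368T1 and 55.6 in 394T4 (log2 fold change -0.99, SE 0.20). Aurkaip1 (-0.62) and Mrp63 (-0.68) were also lower at an unadjusted p under 0.05, and Ptcd3 was the 1 positive member. Of 14 translation factors, among which Ict1 is counted again, 8 were negative (median -0.15). The elongation factor Tsfm had 27.1 and 24.8 FPKM in the metastatic lines, against 38.0 and 44.5 FPKM in the non-metastatic lines (-0.65, SE 0.17), while the initiation factor Mtif2 had 6.52 and 8.11 FPKM in the metastatic lines, against 3.90 and 4.33 FPKM in the non-metastatic lines (0.70, SE 0.23). Of 17 assembly and ribosomal RNA modification genes 11 were negative (median -0.19), and of 17 mitochondrial aminoacyl-tRNA synthetases 10 (median -0.29), with Rbfa and Sars2 lower at an unadjusted p under 0.05. That is 5.88% of each list, under the 8.68% of all genes. Without 482N1 the medians were -0.041 for the assembly genes and -0.070 for the synthetases, and without 368T1 that of the synthetases was -0.050. All these medians were above 0 under scaling to the library sum, and those of the translation factors (0.05) and assembly genes (0.0025) also under scaling to the protein-coding sum.

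The genes encoded in mitochondrial DNA, which include the products of mitoribosomal translation, differed in the other direction. All 15 had a positive fold change, with a median of 0.53 as deposited and a positive median under every scaling tried, 1.17 for the library sum and 0.74 for the protein-coding sum. In 13 of them (86.7%) both metastatic lines were above both non-metastatic lines, against 28.3% of all genes, and 7 were higher at an unadjusted p under 0.05, against 5.7% of all genes. The 7 became 2 for the library sum and 10 for the protein-coding sum, where 943 and 1497 of the 12425 genes tested were higher. The list median was 0.41 without 368T1, 0.67 without 238N1, 0.42 without 482N1 and 0.68 without 394T4. Of the 15, 2 genes had negative values without 482N1 and 1 without 394T4. Their FPKM summed to 24933 in 238N1 and 25647 in 482N1, against 14404 in 368T1 and 18348 in 394T4. mt-Co2, a core subunit of cytochrome c oxidase, had 4366 FPKM in 238N1 and 3671 in 482N1, against 1759 in 368T1 and 2245 in 394T4 (log2 fold change 1.0099, SE 0.21, adjusted p = 0.328). mt-Nd4 of complex I had 1242 and 1459 FPKM in the metastatic lines, against 734 and 791 FPKM in the non-metastatic lines (0.82, SE 0.16). The summed FPKM of the mitoribosomal genes over that of the mitochondrially encoded genes was 0.113 in 238N1 and 0.0959 in 482N1, against 0.266 in 368T1 and 0.182 in 394T4. This ratio does not depend on a factor applied to a whole library, and the groups did not overlap. The 2 mitochondrial ribosomal RNAs, mt-Rnr1 and mt-Rnr2, overlapped between the groups. In each line both stood below every protein-coding gene of mitochondrial DNA, and how fully the libraries captured them was not tested. mt-Rnr2 had 113 FPKM in 238N1 and 318 in 482N1, against 189 in 368T1 and 134 in 394T4.

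Genes of the cytosolic ribosome and of the nuclear part of the respiratory chain resembled the mitoribosomal genes in value. Of 73 cytosolic ribosomal protein genes 59 were negative as deposited, with a median of -0.30, and 15 (20.5%) were lower and 0 higher at an unadjusted p under 0.05, against 8.68% and 5.7% of all genes. The 15 became 7 after quantile normalization, where 7.77% of all genes were lower, and 4 under scaling to the protein-coding sum, against 3.77%. The list median was -0.15 after quantile normalization and -0.087 for the protein-coding sum, against -0.017 and 0.24 for all genes. It was -0.27 without 368T1, -0.34 without 394T4, -0.15 without 482N1 and -0.41 without 238N1. Rpl8 had 745 and 784 FPKM in the metastatic lines, against 1317 and 1135 FPKM in the non-metastatic lines (-0.68, SE 0.15). Rpl13a had 458 FPKM in 238N1 and a listed 0 in 482N1, against a listed 0 in 368T1 and 393 FPKM in 394T4. Near-identical copies were searched for the mitoribosomal genes alone, so their part in the values of this list is not known. Of 73 nuclear-encoded respiratory chain genes 58 were negative as deposited, with a median of -0.30. At that p 19 (26.0%) were lower and 2 higher, against 8.68% and 5.7% of all genes. The 19 became 9 after quantile normalization and 6 for the protein-coding sum, where 7.77% and 3.77% of all genes were lower. The list median was -0.14 and -0.097 there. It was -0.26 without 368T1, -0.32 without 394T4, -0.28 without 482N1 and -0.36 without 238N1. Cyc1 of complex III had 103 FPKM in 238N1 and 109 in 482N1, against 249.6 in 368T1 and 181 in 394T4 (-0.99, SE 0.21). Scaled to the library sum the medians of these lists were 0.34 and 0.33, both under the 0.61 of all genes, and Atp5f1 and Ndufs1 of the respiratory chain passed an adjusted p of 0.05 there. Both had values listed at 0. Atp5f1 had a listed 0 in 238N1 and 72.0 FPKM in 482N1, against a listed 0 in 368T1 and in 394T4. Ndufs1 had 25.4 in 238N1 and 31.2 in 482N1, against a listed 0 in 368T1 and 24.4 in 394T4. A difference between the mitoribosomal genes and either list was not tested.

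**Figure D5:**
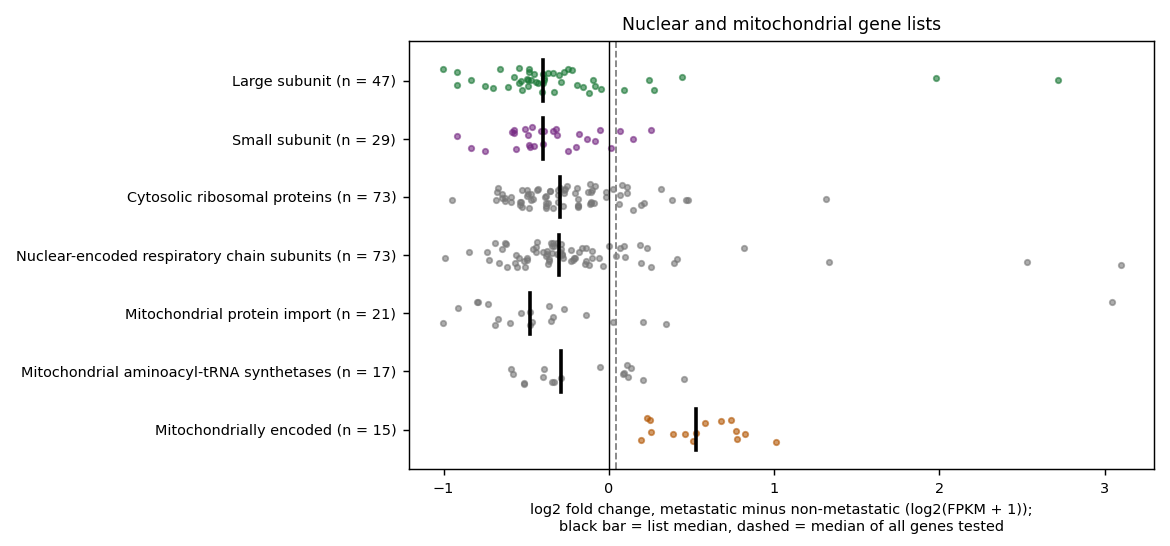
Log2 fold change (metastatic minus non-metastatic, FPKM as deposited) of each tested gene in 7 lists, with the list median as a black bar and the median of all genes tested, 0.05, as a dashed line. The 6 nuclear lists have medians between -0.47 and -0.29, which turn positive under scaling to the library sum, and all 15 mitochondrially encoded genes lie right of 0.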

How the data were processed

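Total RNA of 4 lines, with 1 library each, was made into Illumina TruSeq libraries and read as pairs of 100 bases, per the labels' protocols and the series design text. The submitters' processing notes name mm9 as the build and TopHat, with no version. The step that gave gene values is not given in the sources used here, nor are its annotation, its use of strand or its treatment of reads that match several places. The authors deposited FPKM per gene, per the file headers. A further allele in the tumour genotype is not reported here.

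From these values, log2(FPKM + 1) was fitted with limma 3.58.1 in R 4.3.3, with a variance trend, for the 12425 genes with a mean of at least 1 FPKM, 2 metastatic against 2 non-metastatic lines, two-sided, with Benjamini-Hochberg adjustment over all genes and a threshold of 0.05. This scale understates changes of genes with low values. The fit was tested on simulated data, with the same independent noise for every gene and no shift between libraries. It recovered 99.5% of 2-fold changes there, which does not give the share it would find in these lines. Single values per line were compared by exact permutation. Lists are described by counts and medians. Positions come from GENCODE vM1 on NCBIM37 (the assembly mm9), which held 99.0% of the table's 37527 row IDs, and copies were searched with BLAST 2.17.0. Promoters come from RefSeq.

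The members, the gene lists and the rules were chosen with earlier results of these data known. Genes named with values were the 3 highest and 3 lowest of each subunit, the 6 largest fold changes each way, those past an unadjusted p of 0.05, those listed at 0, Mrps18a, Mrps18b, Mrps18c, Mrps30 and Mrps36, and the 4 that differed most within each group. Of other lists, up to 3 genes with the smallest p could be named, and mt-Rnr1, mt-Rnr2, Ptcd3, Mrpl46, Wdfy1, the copies and their genes Mrps33 and Mrpl48 were added after their values were seen. Alternatives were pseudocounts of 0.1 and 5, no minimum or 5 FPKM, 4 scalings, limma without the trend or robust, each library left out, rows of a symbol added up, and genes listed at 0 left out. Chosen after seeing the data were a minimum of 20 FPKM, copies added or left out, and protein-coding genes alone.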

Additional observations from a re-analysis of the deposited data

How the results depend on the processing

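The count of members past an adjusted p of 0.05 was 0 as reported and in every alternative run other than these, 2 when scaled to the library sum (Mrpl1 and Mrpl44) and 1 in limma without a trend (Mrpl1). The count lower at an unadjusted p under 0.05 was 10 after quantile normalization, 0 for the library sum, 7 for the protein-coding sum and between 2 and 19 with 1 library left out. Over all genes the split of lower and higher at that p was 1079 and 708 as deposited, 204 and 943 for the library sum and 469 and 1497 for the protein-coding sum. The large subunit's median became 0.22 for the library sum and -0.19 for the protein-coding sum. The small subunit's median became -0.33 after quantile normalization, 0.22 for the library sum, -0.49 after median centring, -0.19 for the protein-coding sum and between -0.52 and -0.26 with 1 library left out. The summed FPKM differed by 419.7 for the library sum, against -946 as deposited.

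Of the 38 members named by the rule, 20 turned positive for the library sum, at 0.094 for Mrpl34, 0.25 for Mrpl52, 0.11 for Mrpl11, 0.029 for Mrpl53, 0.10 for Mrpl33, 0.15 for Mrpl10, 0.36 for Mrpl51, 0.049 for Mrpl42, 0.10 for Mrpl22, 0.072 for Mrpl23, 0.32 for Mrps21, 0.55 for Mrps6, 0.074 for Mrps18b, 0.16 for Mrps18a, 0.30 for Mrps17, 0.17 for Mrps30, 0.16 for Mrps34, 0.054 for Mrps27, 0.55 for Mrps18c and 0.46 for Mrps36. For the protein-coding sum Mrps6 became 0.13, Mrps18c 0.15 and Mrps36 0.071. Quantile normalization gave Mrps6 0.12, centring gave Mrps35 -0.080, and adding copies gave Mrpl51 0.019. The scalings differ in the sum they divide by, and other causes were not tested.
With 1 library left out the fold changes that changed sign ranged over -0.72 to 0.18 for Mrpl51, -0.41 to 4.37 for Mrpl44, -0.34 to 0.18 for Mrps6, -0.70 to 0.023 for Mrps17, -0.40 to 0.43 for Mrps35, -0.16 to 0.055 for Mrps18c, -0.20 to 0.49 for Mrps22 and -0.45 to 0.19 for Mrps36. Where a group then held 1 line, limma assumes that it varies like the other group. No paired analysis was possible because replicate numbers of the lines were given in accession order and pair nothing. The library depths are unknown, so no counting error can be given, and 2 lines a group limit every comparison.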

Other observations

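Nuclear genes that bring proteins into mitochondria had lower values in the metastatic lines as deposited, though not under scaling to the library sum, where their median was 0.15. Of 21 import genes tested 17 were negative, with a median log2 fold change of -0.47 against 0.05 for all genes, and 7 were lower and 0 higher at an unadjusted limma p under 0.05, against 8.68% and 5.7% of all genes. The 7 became 5 after quantile normalization and 3 for the protein-coding sum, where 7.77% and 3.77% of all genes were lower. The list median was -0.32 without 368T1, -0.52 without 394T4, -0.38 without 482N1 and -0.41 without 238N1. Timm8b, with 72.0 FPKM in 238N1 and 71.0 in 482N1, against a listed 0 in 368T1 and 76.0 in 394T4, passed an adjusted p of 0.05 when scaled to the library sum. Timm13, a small chaperone of the intermembrane space, had 43.0 FPKM in 238N1 and 34.9 in 482N1, against 88.6 in 368T1 and 69.9 in 394T4 (-1.004, SE 0.21, adjusted p = 0.328). Tomm6 of the outer membrane translocase had 93.8 and 97.8 FPKM in the metastatic lines, against 141 and 150.1 FPKM in the non-metastatic lines (-0.60, SE 0.14). Of 9 mitochondrial proteases and chaperones 6 were negative, with a median of -0.29 (0.35 for the library sum), and Clpp, the subunit of a matrix protease, had 39.1 and 35.1 FPKM in the metastatic lines, against 66.0 and 55.03 FPKM in the non-metastatic lines (-0.69, SE 0.17).

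Genes that maintain and transcribe mitochondrial DNA had a median of 0.16, with 4 of 9 negative (0.77 and 1 of 9 for the library sum). Polg2, an accessory subunit of the mitochondrial DNA polymerase, was listed at 0 in both metastatic lines and had 2.58 FPKM in 368T1 and 1.76 FPKM in 394T4. As for Mrpl1, a listed 0 can be a failed estimate. Supv3l1 had 13.9 and 11.3 FPKM in the metastatic lines, against 18.8 and 18.3 FPKM in the non-metastatic lines (-0.53, SE 0.19). Tfb2m went the other way, with 6.73 and 6.41 FPKM in the metastatic lines, against 3.71 and 4.76 FPKM in the non-metastatic lines (0.54, SE 0.23). Among 8 regulators of mitochondrial gene expression 4 were negative, with a median of -0.05, and for the library sum 0 were negative, with a median of 0.55. The 3 with the smallest p follow, each negative as deposited. Pprc1, a coactivator of nuclear respiratory factors, had 23.7 and 25.5 FPKM in the metastatic lines, against 37.8 and 36.7 FPKM in the non-metastatic lines (-0.58, SE 0.15). Nrf1, a nuclear respiratory factor, had 18.5 and 14.5 FPKM in the metastatic lines, against 24.0 and 23.5 FPKM in the non-metastatic lines (-0.51, SE 0.19). Myc had 108 FPKM in 238N1 and 73.5 in 482N1, against 124 in 368T1 and 152 in 394T4 (-0.62, SE 0.25).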
